A study of Mus musculus with 12 samples.

Results

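The genes described here are the neighbours of Trp73 on mouse chromosome 4. They are 55 named genes that lie on both sides of Trp73 in the RefSeq gene order. They were chosen by position as a list of symbols, with earlier results of these data known. Probes were assigned to them through the accession printed on the array. A probe was found for 54 of the 55 genes, all but Plekhg5, a guanine nucleotide exchange factor. Together they had 77 of the 39429 probes. Of the 54, 52 entered the tests, out of 25028 genes tested in all. Per3, a clock protein, and Kcnab2, a subunit of potassium channels, were left out because no group had a probe of theirs well above background on all 3 arrays. The list starts 53 named genes before Trp73, with Kif1b, and ends 30 named genes after it, with Ssu72. That stretch holds 156 genes, 84 of them named and protein coding. The stretch holds 28 further named coding genes that are not on the list, Tas1r1, Espn, Slc2a5 and Mmp23 among them.

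When a gene is inactivated in embryonic stem cells and the allele is bred onto another strain, the DNA on both sides of it travels with the allele until recombination separates them. Genes next to the targeted one can therefore carry the alleles of another strain in knockout mice and not in controls. A selection cassette left at the locus can also act on genes beside it. The list was described to see whether the neighbours differ between knockout and control mice, in which cells, and at what distance.

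The knockout group holds 3 male C57BL/6J mice whose source names call them TAp73 knockouts (mice 120, 86 and 72). The control group holds 3 male C57BL/6J mice whose source names say wildtype (mice 99, 73 and 74), although the titles of mice 73 and 74 say het and only that of mouse 99 says WT. The ages were 4 months for mouse 120, 5 months for mouse 99 and 8 months for the rest. From the testes of each mouse a Sertoli cell fraction and a germ cell fraction were measured on 1 one-colour Agilent array each, which gave 12 arrays in 4 groups of 3. The sources used here do not give the deleted part of Trp73, the targeting construct, the strain of the embryonic stem cells or the number of backcrosses. Each of 3 slides carried both fractions of 1 knockout and 1 control mouse, namely mice 120 and 99, mice 86 and 73, and mice 72 and 74. The 2 younger mice thus shared a slide.

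Between 64.1% and 78.9% of the probes were well above background on an array, with precision limited by the small number of arrays. Trp73 had 3 kept probes, and none had a lower mean in knockout mice in either fraction. The brightest, A_52_P410636, stood at -1.91, -2.79 and -2.35 in knockout germ cells and at -4.28, -3.10 and -2.68 in control germ cells, on the log2 scale explained below. Its difference was 1.0 ± 0.50 (SE of the fit, adjusted p = 0.754). In the Sertoli fraction it stood at -2.91, -2.82 and -2.72 in knockout mice, at -4.01 and -2.13 in control mice 73 and 74, titled het, and at -3.56 in control mouse 99, titled WT. Probe A_52_P193555 stood at -2.76, -2.56 and -3.29 in knockout germ cells, against -3.63 and -4.15 in germ cells of mice 73 and 74 and -9.40 in those of mouse 99. In the Sertoli fraction the same probe stood at -2.04, -1.52 and -1.70 in knockout mice, at -2.50 and -3.22 in the het-titled mice and at -9.42 in mouse 99. On this probe the 2 control mice titled het thus lay between the knockout mice and mouse 99 in both fractions, the order of their titles. Mouse 99 was also the youngest control, so title and age cannot be told apart. The third probe, A_55_P1988133, stood at -3.50, -4.39 and -3.79 in knockout germ cells, at -5.10 and -4.39 in the het-titled mice and at -8.73 in mouse 99. Its Sertoli fraction levels were -5.43, -5.82 and -5.55 in knockout mice, -6.67 and -5.39 in the het-titled mice and -8.52 in mouse 99. On the last 2 probes the values of mouse 99 lie in the range of probes not well above background on its arrays. Such probes read -7.68 in its germ cells (a dim probe of Ajap1) and -8.12 in its Sertoli fraction (Ccdc27). How far mouse 99 lay below the others on these probes is therefore not measured. Neither the third probe nor the brightest followed the titles in the Sertoli fraction, where het-titled mouse 74 lay above all knockout mice on both, and no Trp73 probe passed the test. The deleted part is not given, so these probes cannot check the knockout itself. Without both het-titled mice 1 control mouse is left, and the spread in the fit comes from the knockout mice alone. No neighbour was called in that fit. Those with an unadjusted p under 0.05 numbered 12 in germ cells (23.1%, beside 17.4% of all genes), 6 in the Sertoli fraction (11.5%, beside 2.07%) and 6 in the per-mouse mean of both fractions (11.5%, beside 4.24%). The fraction labelled Sertoli did not carry the highest Sertoli cell signal. The summed signal of 15 Sertoli cell markers, relative to the 75th percentile of the array, was 66.5 to 76.9 on knockout and 55.0 to 71.8 on control Sertoli arrays, against 149.7 to 174 on knockout and 112 to 132 on control germ arrays. The markers were not of 1 mind: by the test given below, 9 of the 15 were lower and 4 higher in the Sertoli fraction of controls. The sum of 6 fibroblast markers was 254 to 394 on knockout and 277 to 622 on control Sertoli arrays, against 2.98 to 4.37 on knockout and 1.69 to 2.72 on control germ arrays. None of the markers measured was below background on all 12 arrays. In such fractions a smaller number of cells of a type and less RNA per cell cannot be told apart.

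Every level below is the log2 of a probe's signal minus the array's 75th percentile, so 0 is the level that 75% of the probes do not reach, and levels of different probes are not compared. A difference is the mean of one group minus that of the other on the log2 scale, with the standard error (SE) of a limma fit over 3 mice per group. A gene was called when its p-value, adjusted over all genes by the Benjamini-Hochberg method, was under 0.05. The p-values measure the spread between these animals. For each gene that spread was estimated over both fractions together, except in the per-mouse mean.

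None of the 52 neighbours was called between knockout and control mice, in either fraction or in the mean of both. The background was 0.22% of all genes called in germ cells (55 of 25028, 54 of them higher and 1 lower in knockouts), 0% in the Sertoli fraction and 0% in the per-mouse mean. At an unadjusted p under 0.05, 6 neighbours stood out in germ cells, 3 higher and 3 lower in knockouts, against 7.34% of all genes (6.11% higher, 1.23% lower). In the Sertoli fraction 5 did, all lower, against 3.02% of all genes (2.38% lower). In the mean of both fractions of a mouse 7 did, all lower, against 5.55% of all genes (2.78% lower). These are 11.5%, 9.62% and 13.5% of the 52 neighbours in germ cells, the Sertoli fraction and the mean. The median difference of the neighbours was -0.01 in germ cells, -0.15 in the Sertoli fraction and -0.09 in the mean, beside -0.04, -0.10 and -0.06 for all genes. The 3 knockout values lay wholly apart from the 3 control values for 11 neighbours in germ cells (3 above, 8 below), for 11 in the Sertoli fraction (2 above, 9 below) and for 12 in the mean (3 above, 9 below). For all genes such separation occurred in 15.7% (6.57% above, 9.14% below), 6.7% (1.86% above, 4.84% below) and 13.7% (4.79% above, 8.91% below). The share of all genes separated in both fractions at once was not computed, so neighbours described below as separated in both have no background beside them.

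**Figure D1:**
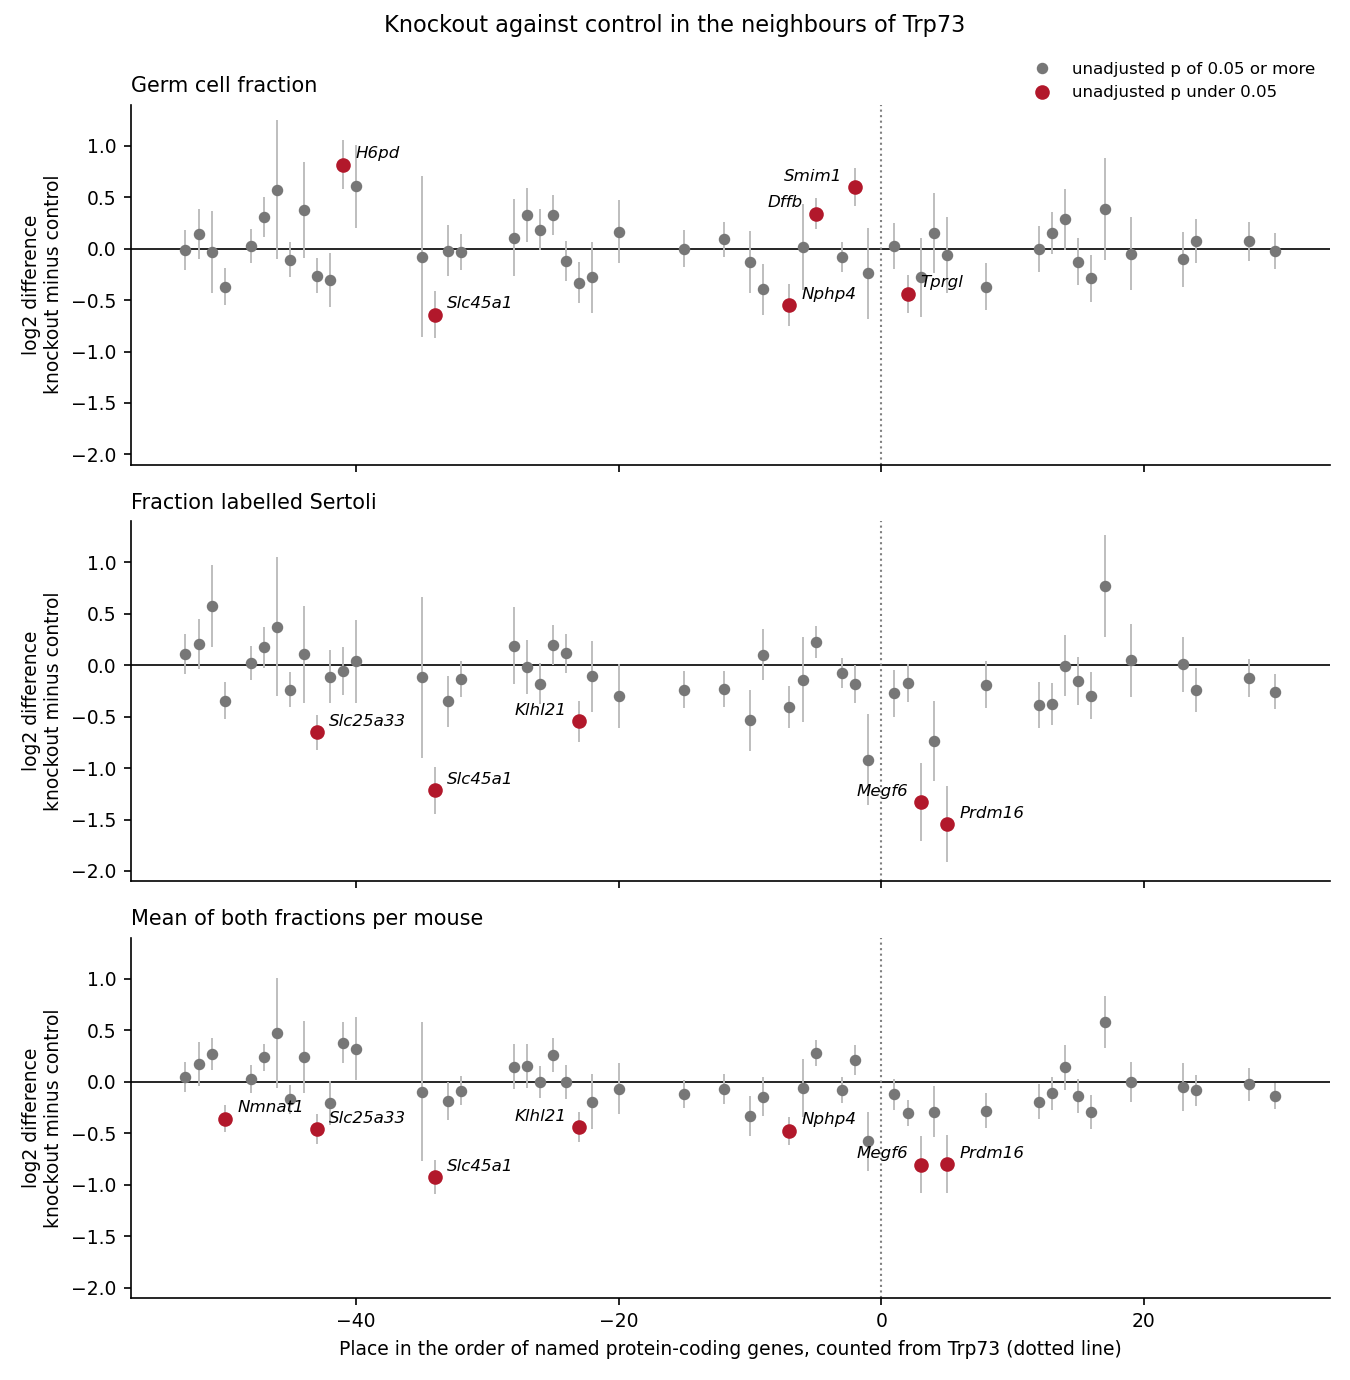
Difference between knockout and control mice (log2, vertical axis) of the 52 tested neighbours by place in the order of named protein-coding genes counted from Trp73 (horizontal axis, dotted line at Trp73), in germ cells (top), the fraction labelled Sertoli (middle) and the per-mouse mean (bottom). Points are differences, bars are SE of the limma fit, n = 3 mice per group, and red points have an unadjusted p under 0.05. The red points of the lower panels all lie below 0 and reach from Nmnat1, 50 named genes before Trp73, to Prdm16, 5 after it, with Slc45a1 at -1.21 in the middle panel and -0.93 in the bottom panel.

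Both genes of the stretch that were called in germ cells are not on the list. Tas1r1, a subunit of a taste receptor, fell in knockout germ cells by 5.28 on the log2 scale (SE 0.37, adjusted p = 0.000648). Mmp23, a metalloproteinase, rose in knockout germ cells by 2.53 ± 0.36 (adjusted p = 0.0228). Slc2a5, a fructose transporter, had a difference of -1.39 ± 0.25 in the Sertoli fraction (adjusted p = 0.385), and Espn, an actin-bundling protein, one of 0.35 ± 0.33 in germ cells (adjusted p = 0.997). Counting every tested gene of the stretch, the 52 neighbours and 26 others, 1 of 78 rose and 1 fell in germ cells and none was called in the Sertoli fraction or the mean. The absence of calls among the 52 thus describes a list that does not hold Tas1r1 and Mmp23.

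Beginning with the genes next to Trp73, 9 of the 52 lie among the 5 nearest named genes on either side. Ccdc27, a coiled-coil protein and the first gene on one side, stood at 2.77, 2.68 and 2.59 in knockout germ cells (mice 120, 86 and 72) and at 3.07, 2.84 and 2.84 in control germ cells (mice 99, 73 and 74). The groups did not overlap, and the difference was -0.24 ± 0.44 (adjusted p = 0.997). The standard deviation was 0.09 in knockout and 0.13 in control germ cells, but 0.33 and 1.13 in the Sertoli fraction. The SE and p of Ccdc27 in germ cells thus mostly carry the spread of the Sertoli arrays. No Sertoli array had Ccdc27 well above background, so it has no usable difference between genotypes there. Wrap73, a centrosomal protein and the first gene on the other side, stood at 0.47, 0.83 and 1.02 in knockout and at 1.02, 0.53 and 0.68 in control germ cells. Sertoli fraction levels were 0.20, 0.09 and 0.36 in knockouts and 0.11, 0.65 and 0.70 in controls. Knockout and control values of Wrap73 overlapped in both fractions, with differences of 0.03 ± 0.23 in germ cells (adjusted p = 0.9999) and -0.27 ± 0.23 in the Sertoli fraction (adjusted p = 0.9997).

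Smim1, whose human counterpart carries the Vel blood group antigen, lies 2 places from Trp73. It stood at -0.12, 0.13 and 0.04 in knockout germ cells, all above the -0.47, -0.66 and -0.63 of control germ cells. The difference was 0.60 ± 0.18, a 1.52-fold higher level (unadjusted p = 0.00782, adjusted p = 0.322). Smim1 in the Sertoli fraction stood at 1.61, 1.55 and 1.12 in knockouts and at 1.80, 1.54 and 1.48 in controls, where the groups overlapped (-0.18 ± 0.18). Dffb, the nuclease that cuts chromosomal DNA in apoptosis, was at -3.37, -3.31 and -3.43 in knockout germ cells and at -3.88, -3.61 and -3.62 in control germ cells. The Sertoli fraction gave -3.06, -3.10 and -3.15 in knockouts and -3.28, -3.48 and -3.21 in controls. Dffb was thus the only one of these 9 genes with every knockout array above every control array in both fractions, by 0.34 ± 0.15 in germ cells (adjusted p = 0.674) and 0.23 ± 0.15 in the Sertoli fraction (adjusted p = 0.9997). Lrrc47, a leucine-rich repeat protein, stood at 2.72, 2.71 and 2.80 in knockout and at 2.78, 2.81 and 2.89 in control germ cells. Its Sertoli fraction levels were 2.03, 2.04 and 1.92 in knockouts and 2.09, 1.92 and 2.21 in controls. The differences of Lrrc47 were -0.08 ± 0.15 in both fractions, and the groups overlapped in each.

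On the other side, Tprgl, a presynaptic vesicle protein, stood at 4.18, 4.31 and 4.28 in knockout germ cells, all below the 5.02, 4.54 and 4.52 of control germ cells (difference -0.44 ± 0.18, unadjusted p = 0.0377, adjusted p = 0.619). Sertoli fraction arrays stood at 4.18, 3.90 and 4.18 in knockouts and at 4.13, 4.40 and 4.24 in controls, and the groups overlapped. Megf6, a secreted protein with repeats like those of epidermal growth factor, stood at -4.08, -5.37 and -3.76 in the knockout Sertoli fraction, all below the -2.63, -3.40 and -3.18 of the control Sertoli fraction. Its difference was -1.33 ± 0.38, which is 2.52-fold lower (unadjusted p = 0.00532, adjusted p = 0.9997). In germ cells Megf6 stood at -4.21, -3.97 and -3.85 in knockouts and at -3.50, -4.08 and -3.61 in controls, where the groups overlapped. Prdm16, a zinc finger transcription factor best known from brown fat, stood at -7.28, -7.33 and -6.37 in the knockout Sertoli fraction and at -4.89, -5.25 and -6.22 in the control Sertoli fraction. The groups did not overlap (-1.54 ± 0.37, unadjusted p = 0.00163, adjusted p = 0.814). However, Prdm16 was well above background on only 1 knockout and 2 control Sertoli arrays, and the differences within the 3 slides were -2.39, -2.08 and -0.15. Its germ cell levels were -5.91, -5.77 and -5.96 in knockouts and -5.35, -6.06 and -6.04 in controls. Arhgef16, a guanine nucleotide exchange factor, was at -5.30, -5.40 and -5.76 in knockout and at -5.57, -5.58 and -5.78 in control germ cells, with overlap, and no Sertoli fraction array had it well above background.

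The sequences before 2 of these genes and 2 further neighbours are shown because motifs of the p53 family can be looked for in them. They are the 250 bases before the annotated start, from the RefSeq promoter table of build GRCm38.p6. Ccdc27 (chr4:154042678-154042927, minus strand) and Wrap73 (chr4:154142122-154142371, plus strand) flank Trp73. Slc25a33 (chr4:149774268-149774517, minus strand) is one of the genes with separate genotypes described further on, and Thap3 (chr4:151988987-151989236, minus strand) holds a match to the p53 family half-site. Capitals mark GGGCGG, a box bound by Sp1, or its complement, and in Thap3 also the half-site, which is the first block of capitals.
Ccdc27: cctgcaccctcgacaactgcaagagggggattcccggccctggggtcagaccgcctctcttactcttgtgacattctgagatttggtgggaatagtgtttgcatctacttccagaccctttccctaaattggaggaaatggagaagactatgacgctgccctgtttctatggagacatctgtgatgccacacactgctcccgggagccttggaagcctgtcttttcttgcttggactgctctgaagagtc
Wrap73: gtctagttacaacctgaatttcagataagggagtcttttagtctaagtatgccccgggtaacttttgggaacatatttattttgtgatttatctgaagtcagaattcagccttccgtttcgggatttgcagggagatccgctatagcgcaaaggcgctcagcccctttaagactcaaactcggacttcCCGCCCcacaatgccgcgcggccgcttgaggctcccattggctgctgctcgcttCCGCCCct
Slc25a33: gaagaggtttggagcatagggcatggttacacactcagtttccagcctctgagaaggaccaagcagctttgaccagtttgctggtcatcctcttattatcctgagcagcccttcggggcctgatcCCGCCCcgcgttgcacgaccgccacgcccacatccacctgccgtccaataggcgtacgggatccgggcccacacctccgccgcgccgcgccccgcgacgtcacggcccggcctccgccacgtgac
Thap3: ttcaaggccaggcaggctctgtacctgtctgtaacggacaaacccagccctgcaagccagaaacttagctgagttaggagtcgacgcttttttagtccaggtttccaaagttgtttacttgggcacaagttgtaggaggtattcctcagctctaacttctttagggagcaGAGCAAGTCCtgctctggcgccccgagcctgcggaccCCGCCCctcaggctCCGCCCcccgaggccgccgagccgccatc
GGGCGG was matched 0 times in the Ccdc27 sequence, 2 times in that of Wrap73, 1 time in that of Slc25a33 and 2 times in that of Thap3, counting both strands. Over the 73 promoters of the 51 neighbours with an entry, 75.3% held it, against 32.7% of all 32851 promoters in the table, which also hold those of non-coding genes. TATAAA was found in 2.74% of the neighbours' promoters and in 12.4% of all. The p53 family consensus half-site was found in 5.48% of the neighbours' promoters, those of 3 genes, and in 7.13% of all. Thap3, whose product has a THAP zinc finger, had a difference between knockout and control mice of 0.32 ± 0.20 in germ cells and 0.20 ± 0.20 in the Sertoli fraction, and the groups overlapped in both. These matches are letters in a window and no evidence of binding.

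Among the 10 tested neighbours of membrane traffic and transport, Slc45a1, a proton-coupled sugar transporter, had the smallest p of all neighbours. In the Sertoli fraction it stood at -6.39, -6.56 and -6.31 in knockout mice and at -5.21, -5.17 and -5.24 in control mice. The groups were far apart, with a difference of -1.21 ± 0.23, which is 2.32-fold lower (unadjusted p = 0.000291, adjusted p = 0.429). Slc45a1 was well above background on 2 of the 3 knockout and on all 3 control Sertoli arrays. In germ cells it stood at -5.25, -4.54 and -4.59 in knockout mice and at -3.81, -4.46 and -4.19 in control mice (-0.64 ± 0.23, adjusted p = 0.454). The knockout arrays were all lower there too, but the distance between the nearest knockout and control arrays was small. Averaged over both fractions, the mice stood at -5.82, -5.55 and -5.45 in the knockout group and at -4.51, -4.81 and -4.71 in the control group (-0.93 ± 0.16, unadjusted p = 0.00108, adjusted p = 0.636). The difference within the 3 slides was -1.31, -0.74 and -0.74.

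Slc25a33, a carrier of pyrimidine nucleotides into mitochondria, stood at 0.00, -0.10 and -0.05 in the knockout Sertoli fraction and at 0.70, 0.81 and 0.30 in the control Sertoli fraction (-0.65 ± 0.17, adjusted p = 0.975). In germ cells it stood at 2.57, 2.62 and 2.61 in knockouts and at 3.00, 2.82 and 2.75 in controls (-0.26 ± 0.17, adjusted p = 0.922). The knockout arrays were lower without overlap in both fractions, and per mouse the difference was -0.46 ± 0.14 (unadjusted p = 0.0176, adjusted p = 0.868). Its second probe gave a difference of -0.27 per mouse. Of this group, 2 genes had an unadjusted p under 0.05 in each of germ cells (Slc45a1 and Tprgl), the Sertoli fraction and the mean (Slc45a1 and Slc25a33), all lower in knockouts. The median difference of the group was -0.02 in germ cells, 0.05 in the Sertoli fraction and 0.10 in the mean.

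Of the 12 tested neighbours of ubiquitin, ribosome, cilium and other functions, Klhl21 and Nphp4 were separated in both fractions. Klhl21, an adaptor of the cullin-3 ubiquitin ligase that acts in cytokinesis, stood at 0.09, -0.04 and -0.12 in knockout germ cells and at 0.25, 0.37 and 0.30 in control germ cells. Its Sertoli fraction levels were -0.10, -0.19 and -0.29 in knockouts and 0.77, 0.00 and 0.29 in controls. All knockout arrays were below all control arrays, with differences of -0.33 ± 0.20 in germ cells (adjusted p = 0.890) and -0.55 ± 0.20 in the Sertoli fraction (unadjusted p = 0.0193, adjusted p = 0.9997). Nphp4, a protein of the ciliary transition zone, stood at 0.39, 0.66 and 0.31 in knockout germ cells and at 1.37, 0.89 and 0.74 in control germ cells (-0.55 ± 0.21, unadjusted p = 0.0230, adjusted p = 0.507). Nphp4 in the Sertoli fraction stood at -2.54, -2.52 and -2.43 in knockouts and at -2.32, -1.86 and -2.11 in controls (-0.40 ± 0.21, adjusted p = 0.9997). A second, dimmer probe of Nphp4 did not share this, with differences of -0.08 in germ cells and 0.40 in the Sertoli fraction. The group's median difference was -0.03 in germ cells, -0.28 in the Sertoli fraction and -0.10 in the mean.

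Of the 9 tested neighbours of metabolism and stress, H6pd, the enzyme that makes NADPH inside the endoplasmic reticulum, had the smallest p in germ cells. It stood at -2.08, -1.31 and -1.49 in knockout germ cells and at -2.30, -2.66 and -2.37 in control germ cells. The knockout arrays were all higher (0.82 ± 0.24, 1.76-fold, unadjusted p = 0.00564, adjusted p = 0.282), and mouse 120 came close to the controls. Within the 3 slides the differences of H6pd were 0.22, 1.35 and 0.88. Sertoli fraction levels of H6pd were 3.25, 3.47 and 3.84 in knockouts and 3.73, 3.49 and 3.51 in controls, with overlap (-0.06 ± 0.24). In germ cells the signal of some other cell types moved with H6pd and Smim1, both of which were far brighter in the Sertoli fraction. The summed signal of 6 Leydig cell markers, all 6 higher in knockouts, was 7.18 to 13.1 on knockout and 2.52 to 6.41 on control germ arrays. The sums of the Sertoli cell and fibroblast markers given above did not overlap between knockout and control germ arrays either. Of these markers 14 of 15 and 5 of 6 were higher in knockouts. The sum of 2 erythroid markers did not overlap, but only 1 of the 2 was higher in knockouts. Sums of peritubular (21.2 to 22.3 on knockout and 20.8 to 24.5 on control germ arrays), leukocyte and endothelial markers overlapped. Of these, 5 of 6, 6 of 8 and 5 of 5 markers were higher in knockouts. Between the fractions of controls the median difference was -1.98 for Sertoli cell, -0.67 for Leydig cell and 7.33 for fibroblast markers. The part of these signals in the values of H6pd and Smim1 was not tested.

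Nmnat1, which makes NAD in the nucleus, stood at 0.78, 0.64 and 0.64 in knockout germ cells and at 1.29, 0.86 and 1.02 in control germ cells. Its Sertoli fraction levels stood at -1.63, -1.72 and -1.80 in knockouts and at -1.59, -1.41 and -1.12 in controls. The knockout arrays were lower without overlap in both, and the per-mouse difference was -0.36 ± 0.13 (unadjusted p = 0.0350, adjusted p = 0.888). Mmel1, a metalloendopeptidase related to neprilysin, had a difference of -0.37 ± 0.23 in germ cells and -0.19 ± 0.23 in the Sertoli fraction, with overlap in each. Per mouse, 1 of the 9 metabolic genes had an unadjusted p under 0.05, and their median difference was -0.09.

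Of the 12 tested signalling genes only Megf6 had an unadjusted p under 0.05, in the Sertoli fraction and in the mean (-0.81 ± 0.28, adjusted p = 0.873). Plch2, a phospholipase C, had a difference of -0.38 ± 0.20 in the Sertoli fraction, with every knockout array lower. Ski, a repressor of TGF-beta signalling, had one of 0.58 ± 0.25 per mouse (adjusted p = 0.888), with every knockout mouse higher. Ctnnbip1, an inhibitor of beta-catenin, was separated upwards per mouse, by 0.24 ± 0.13. Of the 9 tested genes of chromatin and transcription only Prdm16 had an unadjusted p under 0.05, in the Sertoli fraction and in the mean (-0.80 ± 0.28, adjusted p = 0.878).

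**Figure D2:**
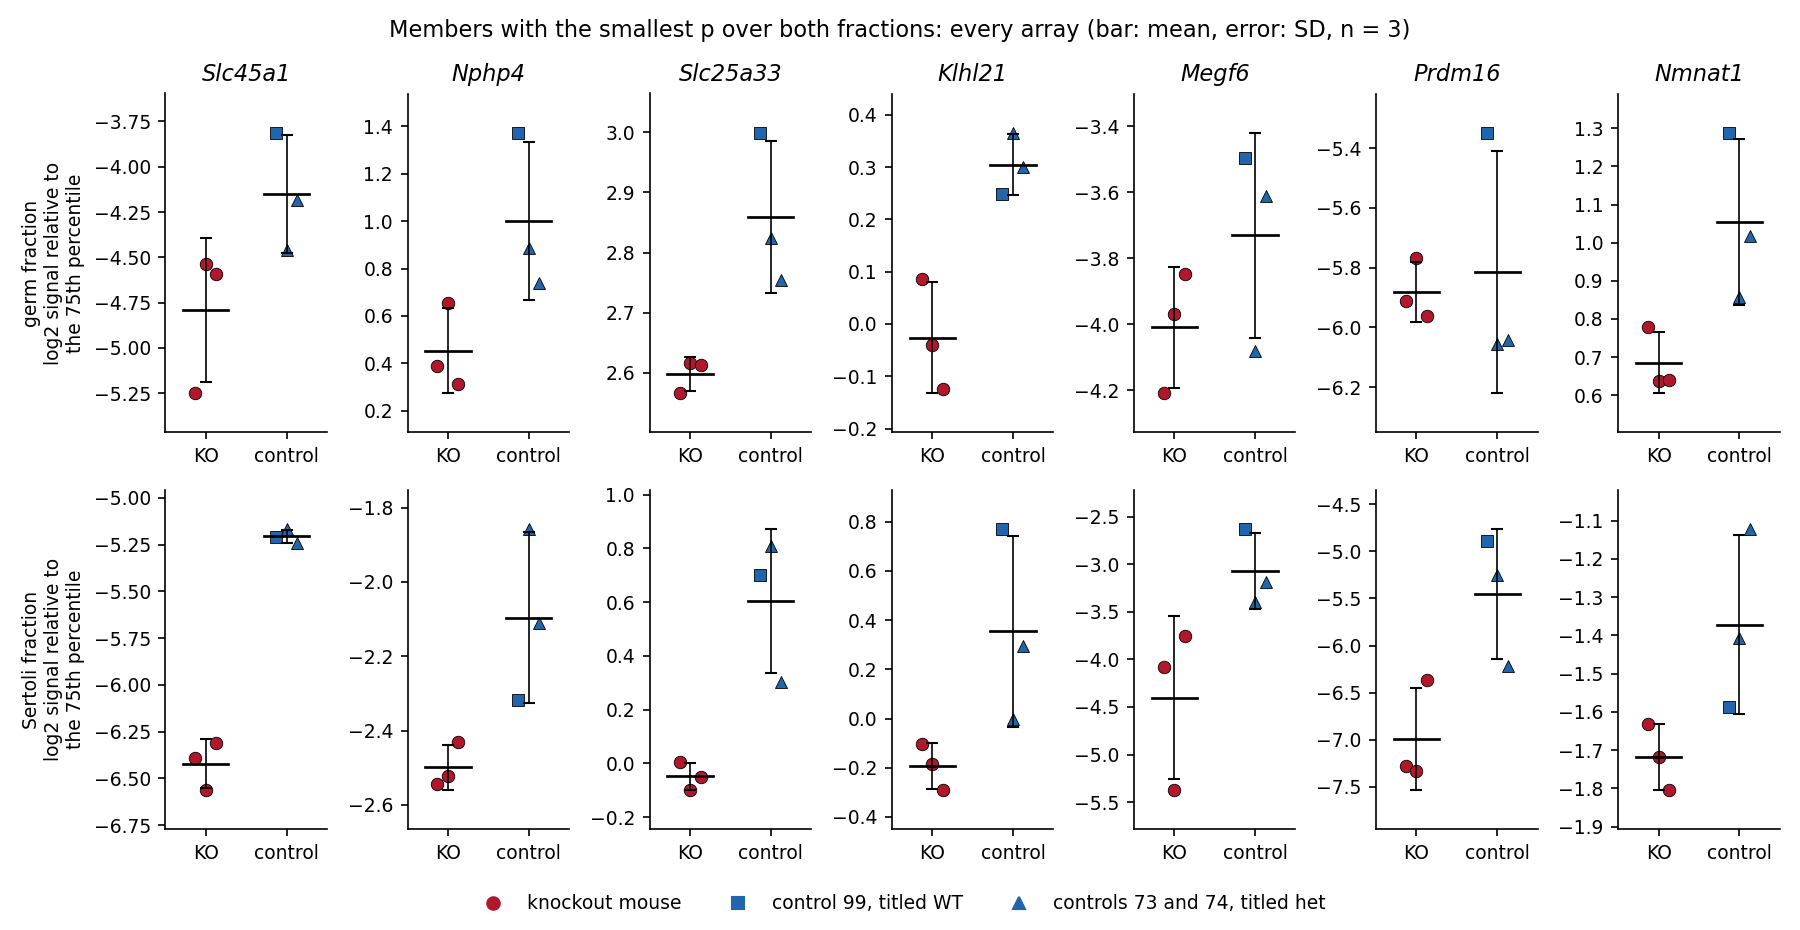
Levels (log2 signal relative to the 75th percentile, vertical axes, not starting at 0) of the 7 neighbours with an unadjusted p under 0.05 in the per-mouse mean, on every array of germ cells (top row) and the fraction labelled Sertoli (bottom row), for knockout (left) and control mice (right). Bars are means and error bars SD, n = 3, circles are knockout mice, squares are control mouse 99 (titled WT) and triangles are control mice 73 and 74 (titled het). Slc45a1 in the bottom row has the widest gap, with knockouts at -6.56 to -6.31 and controls at -5.24 to -5.17.

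In the Sertoli fraction some of the residual germ cell signal moved with these genes. The summed signal of 9 markers of elongating spermatids was 0.641 to 0.785 on knockout and 0.963 to 3.68 on control Sertoli arrays, with none of the 9 markers higher in knockouts, beside 495 to 607 on knockout and 533 to 689 on control germ arrays. The spermatocyte sum was 0.916 to 0.956 on knockout and 0.960 to 1.18 on control Sertoli arrays, without overlap, yet 6 of the 9 markers had a higher mean in knockouts. The sums of round spermatid markers (0.745 to 0.898 on knockout and 0.745 to 0.818 on control Sertoli arrays) and of spermatogonial markers (2.74 to 3.08 on knockout and 2.07 to 3.24 on control Sertoli arrays) overlapped. The sum of 6 peritubular markers was 287 to 427 on knockout and 410.2 to 604 on control Sertoli arrays, and these ranges overlapped. Whether any of these has a part in the lower values of Slc45a1, Slc25a33, Nphp4, Nmnat1 and Klhl21 was not tested. All 5 were also lower without overlap in knockout germ cells, where the round spermatid sum was 59.9 to 72.9 on knockout and 73.9 to 88.0 on control germ arrays, with 1 of 8 markers higher in knockouts. The part of that signal was not tested either.

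The difference between the genotype effects of both fractions was tested directly, as the effect in the Sertoli fraction minus that in germ cells. No neighbour was called, against 0.00799% of all genes (2 of 25028, 1 in each direction). At an unadjusted p under 0.05 there were 3 neighbours, all negative, against 4.57% of all genes (4.09% negative). They were Smim1 (-0.78 ± 0.26, adjusted p = 0.851), Prdm16 (-1.48 ± 0.52, adjusted p = 0.925) and H6pd (-0.87 ± 0.33, adjusted p = 0.953). Slc45a1, lower in knockouts in both fractions, had -0.57 ± 0.33 (adjusted p = 0.9994).

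Distance from Trp73 was counted in places of the RefSeq gene order, over all tested genes of chromosome 4. Of the 11 tested genes 1 to 10 places away, 3 had an unadjusted p under 0.05 in germ cells, 2 in the Sertoli fraction and 2 in the mean. Of the 11 genes 11 to 25 places away the numbers were 1, 1 and 3. Of the 32 genes 26 to 50 places away they were 4, 1 and 4, and of the 49 genes 51 to 100 places away they were 3, 5 and 5. Of the 36 genes over 100 and up to 200 places away there was 1 in each, and of the 915 genes farther off there were 63, 20 and 44. The first 2 bins hold 11 genes each, so 1 gene is 9.09% of either, more than the share of all genes in each comparison. All 11 genes at 11 to 25 places were below 0 in the Sertoli fraction, where 590 of the 915 distant genes were below 0 as well.

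**Figure D3:**
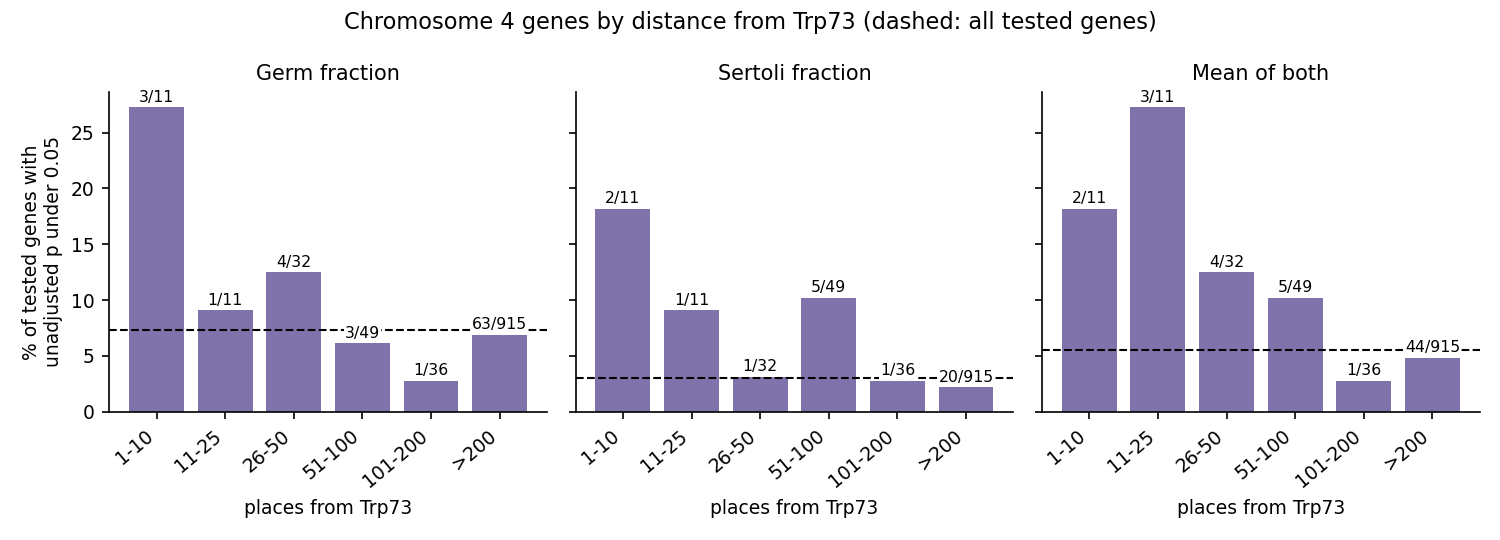
Share of tested chromosome 4 genes with an unadjusted p under 0.05 between knockout and control mice (percent, vertical axis) by places from Trp73 in the RefSeq gene order (horizontal axis), in germ cells, the fraction labelled Sertoli and the per-mouse mean. Each bar is topped by the number of such genes and of genes tested, and the dashed line is the share of all tested genes (7.34%, 3.02% and 5.55%). The 2 nearest bins, of 11 genes each, and the bin of 26 to 50 places, of 32 genes, lie above the line in all 3 panels. The bin of 51 to 100 places lies above it in the Sertoli fraction and the mean, at 10.2% in both.

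Between the fractions the neighbours differed widely. In knockout mice 18 of the 52 rose and 25 fell in the Sertoli fraction relative to germ cells, where 75% of all genes were called (37.9% higher, 37.1% lower). In control mice 18 rose and 21 fell, where 76.4% of all genes were called (39.8% higher, 36.5% lower). Most of these shares of the neighbours are near the background, but in knockout mice 48.1% of the neighbours fell and 34.6% rose. The split depends on the scaling. With the array median in place of the 75th percentile it was 25 higher and 15 lower in knockouts, beside 13071 and 7120 of all genes. In controls it was then 24 and 15, beside 12768 and 7447. With quantile normalization it was 21 and 21 in knockouts, beside 11384 and 8508 of all genes. In controls it was then 23 and 19, beside 11508 and 8707. The larger share of falls in knockouts was thus not kept under either scaling. Ccdc27, Mmel1, Chd5, Rbp7, Ajap1, H6pd, Ski, Errfi1, Thap3 and Ctnnbip1 kept their direction between the fractions of controls under every alternative that gave a value for them. For Arhgef16 and Smim1 the alternatives of this comparison were not examined.

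Among the genes brighter in germ cells, Ccdc27 was at -9.00, -8.78 and -8.35 in the Sertoli fraction and at 2.77, 2.68 and 2.59 in germ cells of knockout mice. In controls it was at -8.12, -8.73 and -6.53 in the Sertoli fraction, against 3.07, 2.84 and 2.84 in germ cells. As no Sertoli array was well above background, only an approximate bound is given. Its signal was lower in the Sertoli fraction than in germ cells by about 741-fold or more in knockout mice. In control mice the bound was about 699-fold. Such a bound sets the germ cell mean against the lowest signal well above background on each array, where that is higher than the probe's own. That signal is not a detection limit, and the bound holds for the main processing only. Under the alternatives the log2 difference of Ccdc27 in controls lay between -11.4 and -6.53. Mmel1 stood at -3.61, -3.40 and -3.47 in the control Sertoli fraction, against 4.65, 4.22 and 4.11 in control germ cells. It fell by 7.82 on the log2 scale in the Sertoli fraction of controls (SE 0.23, adjusted p = 2.6e-10), and the difference in knockouts was -7.64. Chd5, a chromatin remodeller that acts when histones are replaced in mouse spermatids, stood at -4.77, -4.55 and -5.05 in the control Sertoli fraction and at 0.94, 0.57 and 0.21 in control germ cells. It fell by 5.37 in the Sertoli fraction of controls (SE 0.25, adjusted p = 5.1e-09). Rbp7, a retinol-binding protein, was not well above background on any Sertoli array. By the same approximate bound it was lower there by about 14.3-fold or more in knockouts and 11.7-fold or more in controls. With another background correction the difference of Rbp7 in controls was -0.98 and not called. Ajap1, a protein of adherens junctions, fell by 5.17 (SE 0.42, adjusted p = 4.9e-07). For Arhgef16 the bound was 2.58-fold in knockouts and 1.85-fold in controls, and it is not firm. Its germ cell levels in controls averaged -5.64. Per3 read -5.61 in the Sertoli fraction of control mouse 74 without being well above background.

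Among the genes brighter in the Sertoli fraction, H6pd stood at 3.73, 3.49 and 3.51 there and at -2.30, -2.66 and -2.37 in germ cells of control mice, so that it rose by 6.02 ± 0.24 (adjusted p = 1.6e-09). Ski stood at -1.57, -2.52 and -3.43 in the control Sertoli fraction and at -7.10, -6.0 and -6.09 in control germ cells, a rise of 3.89 ± 0.50 (adjusted p = 2.4e-05). Errfi1, an inhibitor of the epidermal growth factor receptor, stood at 3.97, 4.26 and 3.74 in the control Sertoli fraction and at 0.56, 0.05 and -0.21 in control germ cells, a rise of 3.86 ± 0.25 (adjusted p = 6.8e-08). In the same control comparison Thap3 rose by 3.32 ± 0.20 and Ctnnbip1 by 2.72 ± 0.20 (adjusted p = 3.4e-08 and 1.9e-07). The Sertoli fraction was rich in fibroblast and peritubular signal, as given above, and whether these genes come from Sertoli cells was not tested. Of the genes beside Trp73, Smim1 rose by 2.19 ± 0.18 in the Sertoli fraction of controls, while Wrap73, Tprgl, Megf6 and Prdm16 were not called there.

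**Figure D4:**
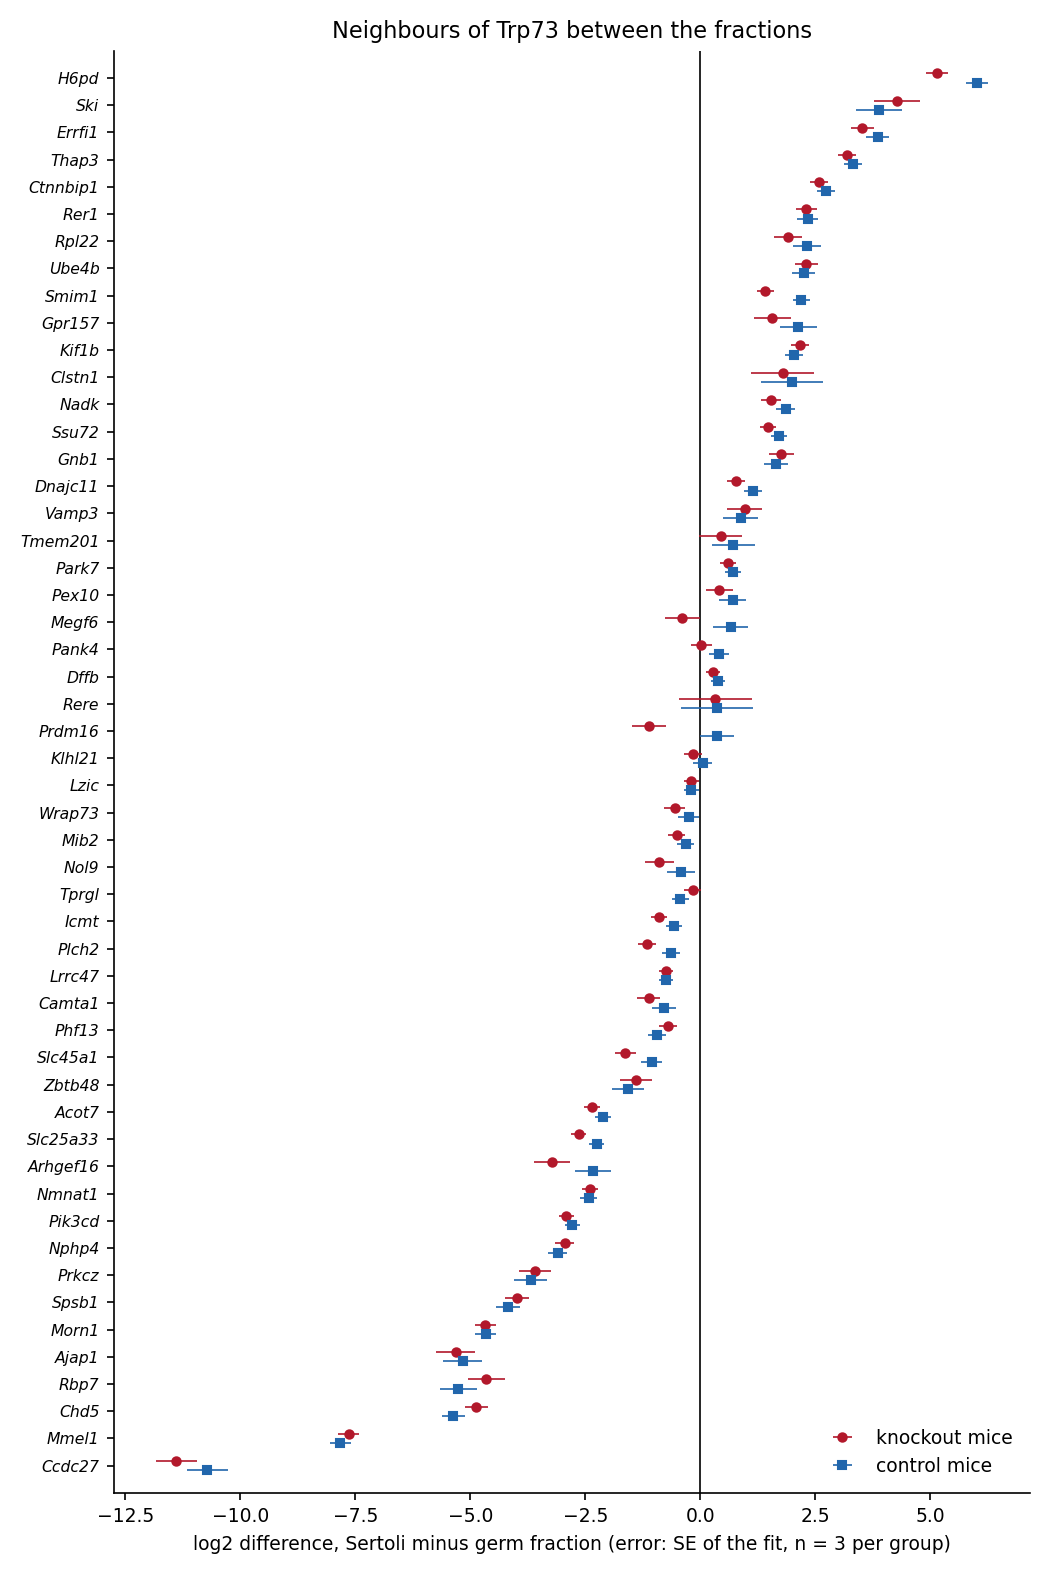
Difference between the fraction labelled Sertoli and the germ cell fraction (log2, horizontal axis) of the 52 tested neighbours, ordered by the difference in control mice, for knockout mice (circles) and control mice (squares). Error bars are SE of the limma fit, n = 3 mice per group. H6pd is at the top with 5.15 in knockouts and 6.02 in controls, and Ccdc27 is at the bottom, where its Sertoli fraction arrays are not above background.

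The remaining 28 tested neighbours are Kif1b, Ube4b, Lzic, Clstn1, Pik3cd, Tmem201, Spsb1, Gpr157, Rere, Park7, Vamp3, Camta1, Dnajc11, Phf13, Zbtb48, Nol9, Acot7, Icmt, Rpl22, Pank4, Pex10, Rer1, Morn1, Prkcz, Gnb1, Nadk, Mib2 and Ssu72. None had an unadjusted p under 0.05 between knockout and control mice in either fraction or in the mean. Their differences ranged between -0.30 (Spsb1) and 0.61 (Gpr157) in germ cells and between -0.54 (Rpl22) and 0.37 (Clstn1) in the Sertoli fraction. Between the fractions of control mice they ranged from -4.66 (Morn1) up to 2.33 (Rer1). Several probes of a gene did not always share a direction. The probes of Ube4b differed by -2.03 and 2.25 between the fractions of controls, and those of Icmt by -0.82, -0.57 and 0.79. For Gnb1 (-0.05 and 0.58) and Tmem201 (0.24 and -0.17) the genotype difference in the mean had opposite signs.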

How the data were processed

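The members and gene lists were chosen with earlier results of these data known. Agilent Feature Extraction 10.7.3.1 and a grid of build mm9 were used, per the file headers. Levels start from the deposited processed intensity, background-subtracted and detrended by the scanner software per the same headers. Deposited median spot and background intensities are uncorrected. The authors' deposited log2 table has nearly equal column medians and ranks probes almost as the processed signal does, as after quantile normalization. The submitters' processing notes name limma without steps.

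Control and outlier spots were dropped, spots of a probe averaged, and log2 signals scaled to each array's 75th percentile. A probe was kept if well above background on all 3 arrays of a group, and the brightest probe stood for a gene. Names and gene order come from RefSeq GRCm38.p6 (26055 probes named, 13374 not). limma 3.58.1 (R 4.3.3) was fitted to 4 group means over 12 arrays, and to per-mouse means, with Benjamini-Hochberg adjustment over all genes. Scripts were tested on simulated data. Genes named are the neighbours among the 5 nearest on each side, up to 10 of smallest p per genotype comparison, 3 for the interaction, and the 5 largest rises and falls between fractions.

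Both fractions of a mouse come from 1 animal, which pairs the arrays. Deviations from the group mean correlated between fractions with r of 0.203 (mouse 72), -0.116 (73), 0.463 (74), 0.283 (86), -0.161 (99) and 0.256 (120). The normexp alternative used the median spot signal, because the files used here hold no mean signal. Other alternatives were scaling, filters, probe choice, slide or mouse as a block, and leaving out mice.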

Additional observations from a re-analysis of the deposited data

How the results depend on the processing

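Under every alternative tried, no neighbour was called between knockout and control mice in germ cells, the Sertoli fraction or the mean, nor for the interaction. Slc45a1 kept an unadjusted p under 0.05 in 16 of 16 alternatives in the Sertoli fraction and in 15 of 15 in the mean. Prdm16 did so in 14 of 16 in the Sertoli fraction. The adjusted p there was at least 0.243 for Slc45a1 and 0.251 for Prdm16. The filter for probes well above background on all 12 arrays removed both genes, so that alternative gave no value for them. The counts were less stable, and the cause was not tested. In germ cells the number of all genes called was 55, and it was 3 with normexp background, 28 with median scaling, 28 without the filter (more genes tested), 1 without the het-titled mice, 1 in 8-month mice only (fewer arrays in both) and 3 to 130 when each mouse was left out, 130 without mouse 120. Neighbours with an unadjusted p under 0.05 numbered 6 in germ cells, against 2 with normexp, 2 with median scaling, 12 without het-titled mice, 2 in 8-month mice and 2 to 7 with a mouse left out, 2 without mouse 99 and 3 without mouse 72 or 120. The share of all genes, 7.34%, moved to 3.09%, 5.07%, 17.4% and 7.12% under the first 4 of these and to 5.85% without mouse 99. In the Sertoli fraction the 5 became 15 with normexp, 3 with probes above background on all 12 arrays and 4 to 9 with a mouse left out, and all genes called were 5 without het-titled mice and 0 to 5 with a mouse left out, with both highest values without mouse 99. All genes, at 3.02% there, stood at 13.6% with normexp, 2.12% with the 12-array filter and 7.55% without mouse 99. In the mean the 7 became 4 with median scaling, 3 in 8-month mice and 3 to 9 with a mouse left out, 3 without mouse 86 or 99, while the share of all genes, 5.55%, was 5.11% with median scaling, 3.06% in 8-month mice, 4.48% without mouse 86 and 4.56% without mouse 99. All genes called in the mean were 1 with median scaling, quantile normalization, the authors' table or the 12-array filter, against 0. For the interaction, the 2 genes called became 0 with normexp, 1 with median scaling, quantile normalization or the authors' table, 4 with the 12-array filter, 0 without het-titled mice, 0 in 8-month mice and 0 to 3 with a mouse left out. The 3 neighbours with an unadjusted p under 0.05 became 0 with median scaling, 6 in 8-month mice and 1 to 3 with a mouse left out, beside 4.57% of all genes, 2.31% with median scaling and 6.37% in 8-month mice. Without het-titled mice the spread comes from knockout mice alone. Reversed values were 0.38 for Arhgef16 in the Sertoli fraction without het-titled mice and -0.12 for Dffb in the mean with normexp. With normexp the median of all genes was -0.41 in the Sertoli fraction, and with median scaling it was -0.15 in germ cells. Between the fractions of controls it was 0.21, 0.88 with median scaling, 0.44 with quantile normalization and 0.85 with normexp. Under the mouse as a replicate block the pairing left 0 neighbours called between genotypes, 55 genes in germ cells and 0 for the interaction. It changed no other call by over 1.5 times. Between the fractions of controls 39 neighbours were called under it, beside 19778 of all genes. The smallest adjusted p of a neighbour was 3.07e-07 there, against 2.64e-10 in the fit without pairing. For dim probes such as Slc45a1, Prdm16, Ccdc27 and Arhgef16 signal near background in the Sertoli fraction limits what can be said.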

Other observations

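The 2 control mice titled het were set beside the control mouse titled WT, after the values had been seen. In the per-mouse means of both fractions, 8 of the 52 neighbours had both het-titled mice between the WT-titled mouse and all 3 knockout mice, against 3.84% of all genes (955 of 24881). Knockout mice were lowest in 7 of them (Klhl21, Megf6, Nphp4, Prdm16, Slc25a33, Slc45a1 and Tprgl) and highest in 1 (Dffb). This order requires the knockout mice to lie wholly apart from the controls. In the mean 12 neighbours (23.1%) did so, against 13.7% of all genes, so the count of 8 is not separate from that. With normexp background the difference of Dffb in the mean was -0.12, and the second probe of Nphp4 had 0.16 where the first had -0.48. Slc45a1 stood at -5.82, -5.55 and -5.45 in knockout mice, at -4.81 and -4.71 in het-titled mice and at -4.51 in the WT-titled mouse. Tprgl stood at 4.18, 4.11 and 4.23 in knockout mice, at 4.47 and 4.38 in het-titled mice and at 4.58 in the WT-titled mouse. Dffb stood at -3.21, -3.20 and -3.29 in knockout mice, at -3.54 and -3.42 in het-titled mice and at -3.58 in the WT-titled mouse. Of these 8 genes, Slc45a1, Slc25a33, Nphp4, Tprgl and Dffb had this order in germ cells but not in the Sertoli fraction. Klhl21, Megf6 and Prdm16 had it in the Sertoli fraction but not in germ cells. For Slc45a1 the Sertoli fraction levels were -5.21 in mouse 99 and -5.17 and -5.24 in mice 73 and 74. Only 1 mouse is titled WT, and it is also the youngest control, so title, age and slide cannot be told apart.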
